A study of Mus musculus with 6 samples.

Results

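The tumour suppressor gene Trp53, which encodes p53, and 9 genes known as its targets were followed in RNA sequencing of basal epidermal cells from mouse embryos at E18.5, shortly before birth. The 10 genes were taken by symbol from a deposited table of 24354 genes, and all 10 were found there. They are Trp53, Mdm2, Ccng1, Zmat3, Plk2, Aen, Btg2, Pmaip1, Bax and Trp53inp1. Libraries came from 3 samples homozygous for Pik3ca H1047R, here called mutant, and from 3 wild-type (WT) samples, all with the strain label C57BL6 and all sorted for high surface α6 integrin, an adhesion receptor of basal cells. H1047R is an activating change in the catalytic subunit of phosphoinositide 3-kinase (PI3K). The labels name no Cre driver. They also leave unsaid whether each sample is an animal of its own, and the spread behind every p-value may therefore be technical. Values are FPKM, fragments per kilobase of transcript scaled to a library total. Levels can be compared between genes of a library, while differences between libraries depend on that scaling, which is varied further on.

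p53 is a transcription factor that is held at a low protein level by the ubiquitin ligase Mdm2 and is stabilised by DNA damage and by other stresses. It raises transcription of genes for cell cycle arrest, DNA repair and cell death, and it raises Mdm2, which closes a negative feedback loop. PI3K signalling meets this loop through AKT, a kinase that phosphorylates Mdm2. Most control of p53 is on the protein, which an mRNA measurement does not see. In skin, p53 is best known for the response of keratinocytes to ultraviolet light, and its relative p63 maintains the basal layer.

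p53 binds DNA at a pair of adjacent decamers. The promoter windows of RefSeq (build GRCm38.p6, 250 bases before to 50 bases after a gene's start) were searched for the p53 decamer, whose consensus is its own reverse complement and is therefore found on both strands at once. Windows were found for 7 of the 10 genes, and 5 of these 7 held a decamer, against 9.55% of 27025 genes with a window. Zmat3, Pmaip1 and Trp53inp1 had no window in that table, and those of Plk2 and Btg2 held no match. A match is a run of letters and not a measured binding site. The stretches are shown because the letters of the p53 decamer occur in them, with each matched decamer in capitals, 5′ to 3′ on the strand of the gene:
Trp53, chr11:69580254-69580333, plus strand: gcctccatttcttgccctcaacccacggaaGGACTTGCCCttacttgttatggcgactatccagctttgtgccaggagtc
Mdm2, chr10:117710905-117710974, minus strand: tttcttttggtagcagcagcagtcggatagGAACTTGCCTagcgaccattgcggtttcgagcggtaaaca
Ccng1, chr11:40755432-40755501, minus strand: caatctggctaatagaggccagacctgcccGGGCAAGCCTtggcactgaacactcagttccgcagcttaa
Aen, chr7:78895932-78895961, plus strand: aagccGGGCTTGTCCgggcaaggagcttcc
Bax, chr7:45467060-45467129, minus strand: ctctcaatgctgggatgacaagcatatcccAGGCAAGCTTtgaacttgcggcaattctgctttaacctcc
Cdkn1a, chr17:29090876-29090977, plus strand: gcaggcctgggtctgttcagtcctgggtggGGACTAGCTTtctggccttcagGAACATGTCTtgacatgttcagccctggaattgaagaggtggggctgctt
Cdkn1a, which encodes the cell cycle inhibitor p21 and is no member of the group, is shown for comparison as the best known p53 target. Its upstream window held 2 decamers. The second of them was followed without a gap by a decamer that differs from the consensus, a pair with 1 mismatch in all. Gapless pairs were searched on either side of a match and in the rest of each window, with mismatches counted at every base. The decamer of Ccng1 directly follows 10 bases that make a pair with it, also with 1 mismatch in all. A pair with up to 1 mismatch occurred for 0.107% of genes with a window and, among the members, for Ccng1 alone. The best pairs of Trp53, Aen and Bax had 3 mismatches each. Up to 3 mismatches were met for 7.2% of genes with a window and for 4 of the 7 members that had one, and the windows of Mdm2, Plk2 and Btg2 held no such pair. The first base of the matched decamer lay 75 bases before the start of Trp53, 186 before that of Mdm2, 185 before that of Ccng1 and 201 before that of Bax. In Aen it lay 121 bases before the start of one transcript and 10 bases past that of another. The best known p53-responsive promoter of Mdm2 lies in its first intron, outside these windows.

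Setting mutant against WT libraries asks how an active PI3K changes the levels of p53 mRNA and of its target mRNAs before birth. The group did not move together. Ccng1, Zmat3, Aen, Btg2 and Trp53inp1 were higher in mutant libraries, Trp53, Mdm2, Plk2 and Pmaip1 were lower, and Bax did not pass the test. Tests were limma fits of log2(FPKM + 1) over 11385 genes and a gene passed at a Benjamini-Hochberg adjusted p under 0.05. By this rule 9 of the 10 genes passed, 5 higher and 4 lower, against a background of 46% of all genes tested, with 23.2% higher and 22.8% lower. The values of the groups did not overlap for 9 of the 10 genes, as for 56% of all genes tested. The 10 genes were chosen with earlier results of these data known, so their share above the background is no independent evidence. None of the 9 reached a log2 fold change of 1 in size, and their median size was 0.43, against 0.42 for all genes that passed. The median signed change was 0.16 over the 10 genes and 0.01 over all genes tested.

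**Figure D1:**
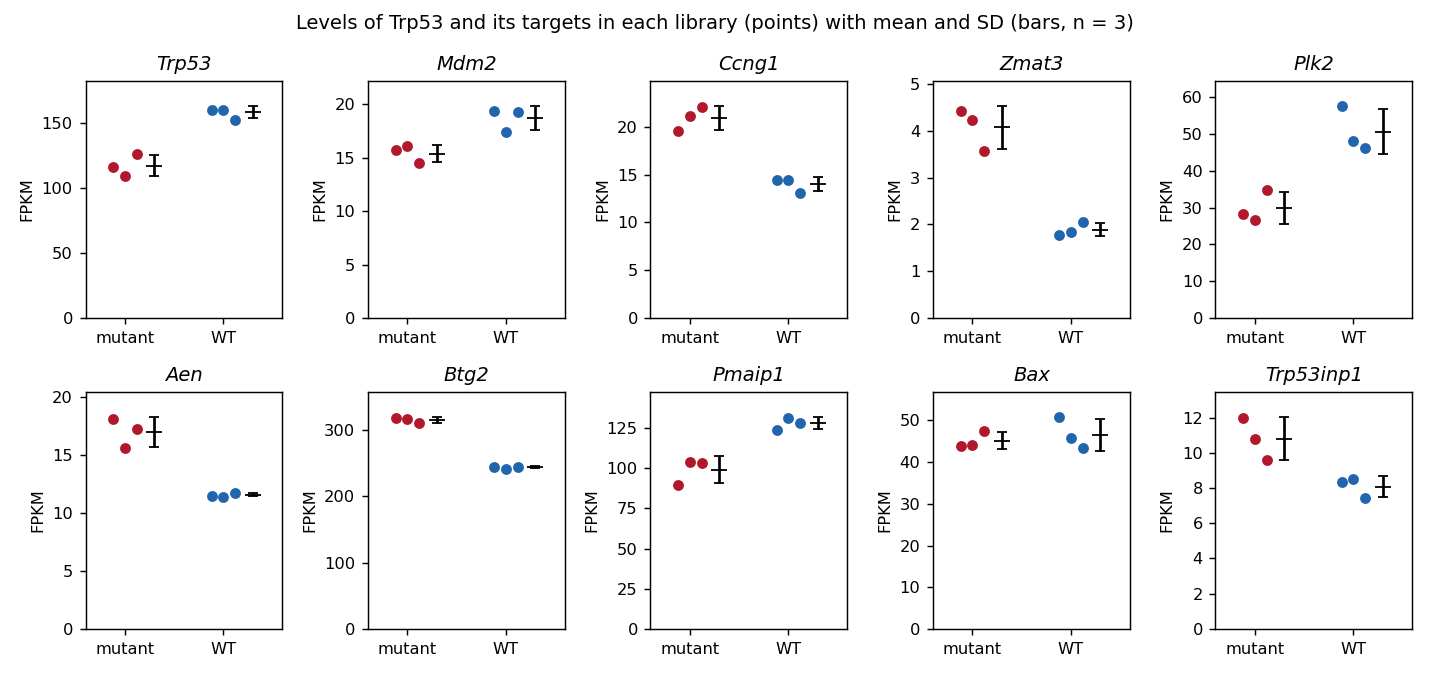
FPKM of each gene in the 3 mutant and 3 WT libraries (points, in replicate order), with the mean and SD of each group (bars, n = 3 each) on axes that start at 0. Groups are separate in 9 of 10 panels; the points of Bax overlap.

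Trp53 (chromosome 11, 69580359 to 69591873, plus strand) was measured at 116, 109 and 126 FPKM in mutant libraries and at 160, 160 and 152 FPKM in WT libraries. Every mutant value was under every WT value. The mean fell by 25.8% (117 ± 8.22 FPKM in mutant and 158 ± 4.5 in WT libraries, SD, n = 3 each), a log2 fold change of -0.43 (SE 0.0709, limma adjusted p = 0.00206).

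Mdm2 (chromosome 10, 117688875 to 117710758, minus strand), the ubiquitin ligase that restrains p53, was at 15.7, 16.1 and 14.5 FPKM in mutant libraries and at 19.4, 17.4 and 19.3 FPKM in WT libraries. The groups did not overlap, but the nearest values, 16.1 in a mutant and 17.4 in a WT library, were close. The log2 fold change was -0.26 (SE 0.0679, limma adjusted p = 0.0146). The call was lost without WT replicate 1 (adjusted p = 0.0535) and with a block on the replicate number (adjusted p = 0.0554). Mdm4, the Mdm2 relative that also binds p53, was at 20 ± 2.69 FPKM in mutant and 19 ± 1.66 FPKM in WT libraries and did not pass (SD, n = 3 each; log2 fold change 0.07, limma adjusted p = 0.622).

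Among the genes of cell cycle control, Ccng1 (chromosome 11, 40748552 to 40755286, minus strand) encodes cyclin G1, which recruits a phosphatase to Mdm2. Its values were 19.6, 21.1 and 22.1 FPKM in mutant libraries and 14.4, 14.4 and 13.1 FPKM in WT libraries. All mutant values lay above all WT values, and the ratio of means was 1.5 (log2 fold change 0.55, SE 0.0676, limma adjusted p = 5.08e-04).

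Btg2 (chromosome 1, 134074865 to 134079155, minus strand), an antiproliferative gene whose product promotes mRNA deadenylation, was the most abundant of the 10. It stood at 318, 316 and 310 FPKM in mutant libraries and at 245, 242 and 245 FPKM in WT libraries. The WT values were the tightest of any gene of the 10 in either group, with a coefficient of variation of 0.688%. The mean was 1.29 times as high in mutant libraries (log2 fold change 0.37, SE 0.0632, limma adjusted p = 0.00255).

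Plk2 (chromosome 13, 110395044 to 110400843, plus strand), a kinase of the polo-like family, moved the other way. It was measured at 28.3, 26.7 and 34.7 FPKM in mutant libraries and at 57.4, 48.1 and 46.2 FPKM in WT libraries. The groups were separate, with the highest mutant value, 34.7, well under the lowest WT value, 46.2. The mean fell by 40.9%, more than that of any other of the 10 genes (log2 fold change -0.74, SE 0.115, limma adjusted p = 0.00152).

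Btg2 and Plk2 are also known as immediate early genes, which respond within minutes to growth factors and to the handling of cells. Of 25 other immediate early genes, 8 were higher and 10 lower in mutant libraries, with a median log2 fold change of 0.02, against 23.2% higher and 22.8% lower over all genes tested. At the same total FPKM per library, described further on, 12 were higher and 9 lower, against 47.3% and 7.35% of all genes tested. Their summed level was 8002 to 8463 FPKM in mutant and 9429 to 9450 FPKM in WT libraries. By smallest adjusted p, Ier3 (log2 fold change -1.48), Srf (-1.35), Maff (-1.35) and Arc (-1.30) led this list, and all of them were lower. Egr1 and Fos, chosen after their values were seen, went the other way. They were at 870 ± 119 and 681 ± 47.8 FPKM in mutant libraries and at 375 ± 23.6 and 379 ± 43.7 FPKM in WT libraries (SD, n = 3 each). Srf, which encodes a factor that drives many immediate early genes, was at 67.9 ± 5.95 FPKM in mutant and 174 ± 10.5 FPKM in WT libraries. A part of this set in the values of Btg2 and Plk2 was not tested.

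Of the genes of cell death, Aen (chromosome 7, 78895927 to 78908833, plus strand) encodes a nuclease that acts in apoptosis. It was at 18.1, 15.6 and 17.3 FPKM in mutant libraries and at 11.5, 11.4 and 11.7 FPKM in WT libraries. Mutant values were all higher, and more spread out, than WT values (17 ± 1.29 and 11.6 ± 0.134 FPKM, SD, n = 3 each). The log2 fold change of Aen was 0.52 (SE 0.0671, limma adjusted p = 6.44e-04).

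Pmaip1 (chromosome 18, 66458604 to 66465558, plus strand), which encodes the BH3-only protein Noxa, was lower. Values of 89.4, 104 and 103 FPKM in mutant libraries lay under values of 124, 131 and 128 FPKM in WT libraries. The mean fell by 22.5% (log2 fold change -0.37, SE 0.076, limma adjusted p = 0.0057).

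Bax (chromosome 7, 45461695 to 45466898, minus strand), the pore-forming effector of apoptosis that BH3-only proteins switch on, was at 43.8, 44 and 47.4 FPKM in mutant libraries and at 50.8, 45.8 and 43.3 FPKM in WT libraries. The groups overlapped. Its log2 fold change was -0.05, with a 95% interval between -0.22 and 0.12 (limma adjusted p = 0.625). In the annotation, 192 exon bases of Bax also belong to Gm45808 on the same strand, and no other member shares exon bases with another annotated gene.

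Trp53inp1 (chromosome 4, 11156441 to 11174377, plus strand), a stress-induced nuclear protein gene that also acts in autophagy, was at 12, 10.8 and 9.57 FPKM in mutant libraries and at 8.33, 8.54 and 7.41 FPKM in WT libraries. The groups were separate, with 9.57 in a mutant and 8.54 in a WT library as the nearest values. The ratio of means was 1.34 (log2 fold change 0.37, SE 0.0911, limma adjusted p = 0.0118).

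Zmat3 (chromosome 3, 32334794 to 32367438, minus strand), which encodes a zinc finger protein that binds RNA, was the least abundant of the 10 and had the largest ratio. It was at 4.42, 4.23 and 3.56 FPKM in mutant libraries and at 1.78, 1.84 and 2.05 FPKM in WT libraries. Every mutant value was far above every WT value, and the ratio of means was 2.15. Adding 1 before the log shrinks the change of a gene this low, and the log2 fold change was 0.81 (SE 0.0937, limma adjusted p = 3.80e-04).

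Zmat3 is also the annotated neighbour of Pik3ca, the altered gene. In the GRCm38 annotation its end lies 31.7 kb before the start of Pik3ca, and the genes point away from each other. Pik3ca was at 7.15, 6.81 and 5.98 FPKM in mutant libraries and at 8.7, 8.92 and 9.5 FPKM in WT libraries, and it fell by 0.39 on the log2 scale (limma adjusted p = 0.00433). Of the other 5 tested genes within 300 kb of the Pik3ca locus in the table, Zfp639 (log2 fold change -0.28) and Ndufb5 (-0.42) were lower, while Mfn1 (0.05), Actl6a (0.07) and Mrpl47 (0.23) did not pass. With the values as deposited, Zmat3 alone of these 7 genes passed as higher. At the same total FPKM per library Zmat3 (1.05), Mfn1 (0.36), Actl6a (0.40) and Mrpl47 (0.54) passed as higher, and the lower calls of Pik3ca, Zfp639 and Ndufb5 ended. Under that scaling the median gene stood at 0.30, and 47.3% of all genes tested passed as higher. The table gives the locus of Zmat3 also to 4930429B21Rik, which was between 0.196 and 0.45 FPKM in mutant libraries and between 0.124 and 0.221 FPKM in WT libraries. The labels do not say how the Pik3ca allele was made, and a part of the allele in the Zmat3 values cannot be told apart from other effects of the genotype.

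**Figure D2:**
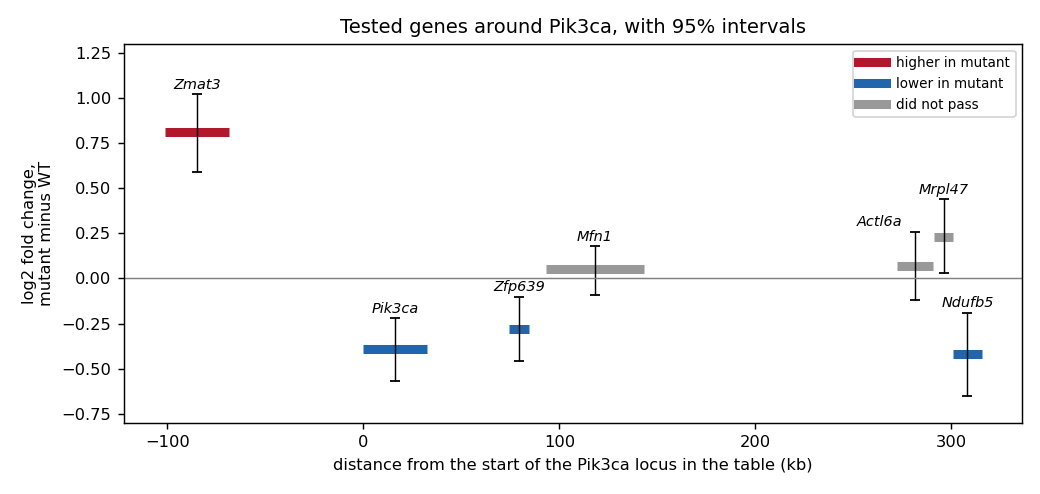
Log2 fold change, mutant minus WT, of the 7 tested genes within 300 kb of Pik3ca, drawn at their distance from the start of the Pik3ca locus in the table (kb), with 95% intervals from the limma fit (vertical bars) and the extent of each locus (thick lines). Zmat3 at 0.81 is the highest; Pik3ca, Zfp639 and Ndufb5 lie under 0.

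The order of levels was led by Btg2, Trp53 and Pmaip1 and closed by Trp53inp1 and Zmat3 in both groups. In mutant libraries Bax, Plk2, Ccng1, Aen and Mdm2 followed each other between them, and in WT libraries the order was Plk2, Bax, Mdm2, Ccng1 and Aen. Mdm2 thus stood above Ccng1 and Aen in WT libraries and under both in mutant libraries. Of neighbours in the order, Aen and Mdm2 overlapped in mutant libraries, and Plk2 and Bax overlapped in WT libraries.

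A ratio of FPKM values within a library does not depend on how libraries were scaled, so each target was also set against Trp53. The ratio of Zmat3 to Trp53 was 0.0381, 0.0387 and 0.0284 in mutant libraries and 0.0111, 0.0115 and 0.0135 in WT libraries, 2.91 times as high on average. Because Trp53 itself was lower in mutant libraries, a gene of unchanged FPKM also gains in this ratio, and the median of 11384 genes tested was 1.36 times the WT ratio. The ratio of Ccng1 to Trp53 was 0.169, 0.193 and 0.176 in mutant libraries and 0.0899, 0.0903 and 0.0861 in WT libraries, 2.02 times as high. For Aen, Trp53inp1, Btg2 and Bax the mean ratio was 1.99, 1.81, 1.74 and 1.3 times that of WT libraries. The value of Bax thus lay under that of the median gene, and 57% of genes had a larger one. In these 6 genes all mutant ratios lay above all WT ratios, as for 67.6% of all genes tested. Zmat3, Ccng1, Aen, Trp53inp1 and Btg2 were the 5 of the 9 targets above the median gene.

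The ratio of Plk2 to Trp53 was 0.244, 0.244 and 0.276 in mutant libraries and 0.358, 0.301 and 0.303 in WT libraries, lower in every mutant library, as for 7.7% of all genes tested. For Mdm2 and Pmaip1 the groups overlapped. The mean ratio of Mdm2 to Trp53 was 0.133 ± 0.0161 in mutant and 0.119 ± 0.00904 in WT libraries (SD, n = 3 each; two-sided exact permutation p = 0.3). That of Pmaip1 was 0.85 ± 0.0946 in mutant and 0.812 ± 0.0349 in WT libraries (SD, n = 3 each; two-sided exact permutation p = 0.7). For the 7 genes whose groups were separate the exact permutation p was 0.1, the smallest that 3 against 3 allows, so the test cannot pass 0.05 for any of them.

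**Figure D3:**
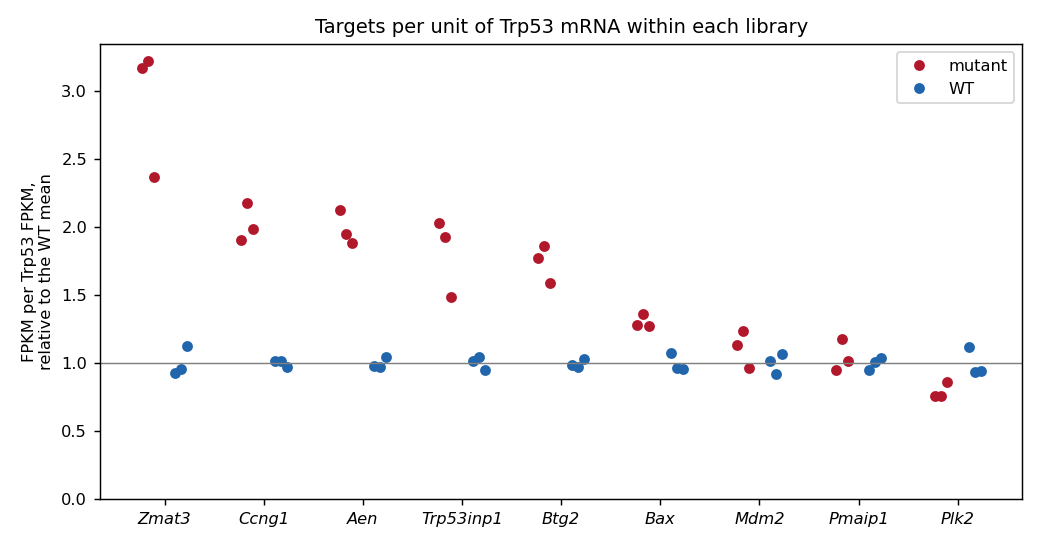
FPKM of each target divided by the FPKM of Trp53 in the same library, relative to the mean of the WT libraries (line at 1), for 3 mutant and 3 WT libraries. Mutant points lie above WT points for the 6 genes from Zmat3 to Bax, overlap them for Mdm2 and Pmaip1, and lie under them for Plk2.

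Directions between the groups rest on the scaling of the libraries. The deposited values summed to between 538627 and 651769 FPKM in mutant libraries and to between 656761 and 767148 FPKM in WT libraries. Giving each library the same total moved the median gene up by 0.29 in log2 fold change, and 86.5% of the genes that then passed were higher, against 50.5% with the values as deposited. Under that scaling 6 of the 10 genes passed as higher and 1 as lower. Of all genes tested 54.6% then passed, 47.3% as higher and 7.35% as lower. The lower calls of Trp53 (log2 fold change -0.10, limma adjusted p = 0.259) and Pmaip1 (-0.04, adjusted p = 0.748) ended. That of Mdm2 ended with its sign turned (0.05, adjusted p = 0.774). Bax passed as higher (0.28, adjusted p = 0.0231), which was just under the median gene at 0.30. The lower call of Plk2 held at -0.42.

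The 5 higher genes passed under both scalings, with larger changes at the same total (1.05 for Zmat3, 0.86 for Ccng1, 0.83 for Aen, 0.70 for Btg2 and 0.67 for Trp53inp1). Measured from the median gene of each fit, the 10 genes had the same sign in both, and Trp53 stood at -0.44 as deposited and at -0.40 at the same total. Quantile normalization, which matches the distributions of the libraries, changed the most abundant members. Under it Btg2 was at 0.70, Trp53 at -0.18 with its call held (adjusted p = 0.019) and Pmaip1 at -0.15 with its call lost (adjusted p = 0.151). Scaling by the median ratio over genes kept the calls as deposited, 5 higher and 4 lower. Trp53 was then at -0.43 (limma adjusted p = 0.00199), Mdm2 at -0.27 (adjusted p = 0.0145) and Pmaip1 at -0.37 (adjusted p = 0.00552). Such a scaling holds the median gene in place, here at 0.01 as with the deposited values, so it cannot show whether most genes moved.

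**Figure D4:**
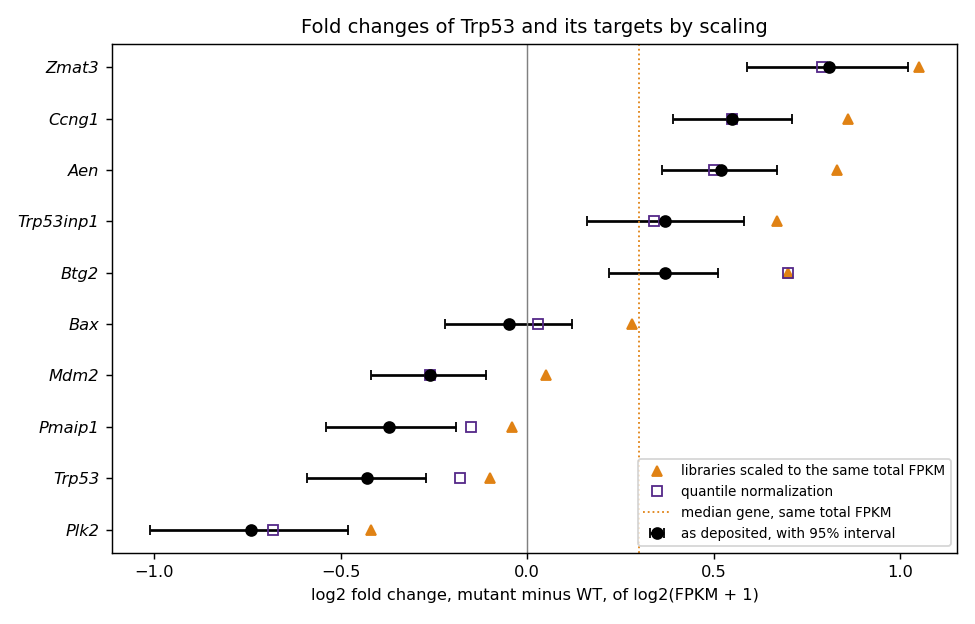
Log2 fold change of each gene, mutant minus WT, of log2(FPKM + 1) as deposited (circles with 95% intervals from the limma fit), with libraries scaled to the same total FPKM (triangles) and after quantile normalization (squares). The dotted line is the median gene at the same total, 0.30. The 5 higher genes lie right of 0 in every scaling shown, and Plk2 lies left of 0 in every scaling shown.

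Other established targets of p53 were compared in 5 lists that leave the 10 genes out. Of 101 found in the table, 90 were tested, 24 were higher and 25 lower. That is 54.4% that passed, near the background of 46%, and their median log2 fold change was 0.01. With the same total per library, 44 were higher and 14 lower, against the background of 47.3% and 7.35% given above. These lists are broad, and many of their genes answer to other factors as well. For each list below, the background is 23.2% higher and 22.8% lower as deposited, and 47.3% and 7.35% at the same total.

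Targets of cell cycle arrest and feedback were divided, with 2 of 12 tested higher and 3 lower (median -0.02). Cdkn1a was at 133, 122 and 123 FPKM in mutant libraries and at 141, 127 and 123 FPKM in WT libraries, with overlapping groups (log2 fold change -0.04, 95% interval from -0.22 to 0.13, limma adjusted p = 0.66). At the same total it passed as higher (0.29, adjusted p = 0.0389), just under the median gene at 0.30. In this list 7 genes, with Cdkn1a among them, were then higher and 2 lower. Ppm1d, the Wip1 phosphatase that turns off p53 signalling, fell to 7.47 ± 0.659 FPKM in mutant libraries, against 12.6 ± 0.335 FPKM in WT libraries (SD, n = 3 each). Gadd45a, a growth arrest and DNA damage gene, fell by 0.91 on the log2 scale, while the mitotic gene Gtse1 (0.54) and the p53 relative Trp73 (0.40) rose.

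Among targets of cell death, 9 of 21 tested were higher and 3 lower (median 0.14), and 14 and 2 at the same total. The death receptor gene Fas was at 5.51, 10.1 and 10.1 FPKM in mutant libraries and at 69, 56.9 and 55.6 FPKM in WT libraries, the largest change in these lists (log2 fold change -2.72, limma adjusted p = 4.03e-05). Ddit4, an inhibitor of mTORC1 that also answers to other stresses, rose to 88.8 ± 16.2 FPKM in mutant libraries, against 40.8 ± 2.18 FPKM in WT libraries (SD, n = 3 each). Rnf144b (0.73) and the survival gene Bcl2l1 (0.50), which encodes an inhibitor of apoptosis, rose as well on the log2 scale.

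Targets of DNA repair had 4 of 14 higher and 5 lower (median -0.03), and 8 and 1 at the same total. Without mutant replicate 2 only 4 passed, and without WT replicate 2 only 5. Of all genes tested, 3866 and 4008 then passed, against 5234 with all libraries. Xpc, which recognises DNA lesions, was at 11.1 ± 0.293 FPKM in mutant and 7.45 ± 1.21 FPKM in WT libraries, whereas Ddb2, its partner in nucleotide excision repair, was at 10.8 ± 0.197 FPKM in mutant and 14.6 ± 1.18 FPKM in WT libraries (SD, n = 3 each). Mgmt, which removes alkyl groups from guanine, fell by 0.85 and the repair nuclease gene Ercc5 fell by 0.33 on the log2 scale. The lower calls of Ddb2 and Ercc5 ended at the same total (-0.09 and -0.02).

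Targets of metabolism and autophagy had 6 of 23 higher and 4 lower (median 0.05), and 10 and 2 at the same total. Tigar, a phosphatase that draws glucose away from glycolysis, rose to 4.43 ± 0.244 FPKM in mutant libraries, against 2.16 ± 0.346 FPKM in WT libraries (SD, n = 3 each). Aldh4a1 of proline breakdown (0.58) and Mlycd of malonyl-CoA breakdown (0.59) rose, and the autophagy gene Atg10 fell by 0.50 on the log2 scale, a call that ended at the same total (-0.21).

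Targets at the surface, secreted or in signalling had 3 of 20 higher and 10 lower (median -0.29), and 5 higher and 7 lower at the same total. Of all genes tested, 22.8% were lower as deposited and 7.35% at the same total. The receptor tyrosine kinase gene Epha2 fell to 49.1 ± 2.1 FPKM in mutant libraries, against 105 ± 5.71 FPKM in WT libraries. The interferon regulatory factor gene Irf5 was at 2.57 ± 0.177 FPKM in mutant and 10.1 ± 0.916 FPKM in WT libraries (SD, n = 3 each). Ier5 fell by 1.03 and Sertad1 by 1.53 on the log2 scale.

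**Figure D5:**
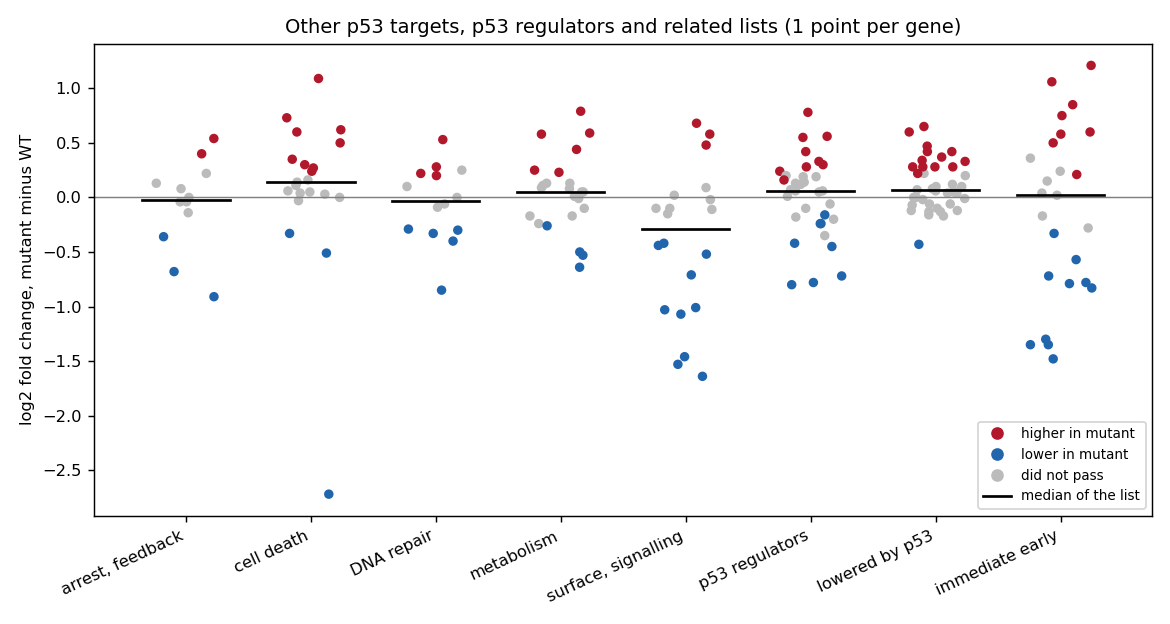
Log2 fold change, mutant minus WT, of each tested gene of the 5 lists of other p53 targets, of p53 regulators, of genes lowered by p53 and of immediate early genes (points, coloured by the limma call) with the median of each list (bars). Higher and lower genes occur in each list; the lowest point is Fas at -2.72.

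Regulators of p53 had 9 of 33 tested higher and 8 lower (median 0.06), and 16 and 3 at the same total. Against 17 calls with all libraries, the count was 10 without mutant replicate 2 or WT replicate 1, and 11 without mutant replicate 1 or WT replicate 2. Trp63, the p53 relative that maintains basal keratinocytes, was at 206 ± 12.1 FPKM in mutant and 198 ± 13.3 FPKM in WT libraries and did not pass (SD, n = 3 each; limma adjusted p = 0.554). It passed as higher at the same total (0.39, adjusted p = 0.025) and after quantile normalization (0.39, adjusted p = 0.0143). The median gene stood at 0.30 and 0.03 in these fits. Cdkn2a, whose ARF product inhibits Mdm2, was listed at 0.0677, 0 and 0.0755 FPKM in mutant libraries and at 0 in every WT library, too low to be tested. Trp53bp2, which encodes the p53-binding protein ASPP2, fell by 0.78 on the log2 scale. The kinase Mapk14 (0.55) and the histone methyltransferase Setd8 (0.56) rose on the same scale.

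Genes that p53 lowers through Cdkn1a and the DREAM repressor complex, which are genes of DNA replication and mitosis, had 13 of 40 higher and 1 lower (median 0.07), and 33 and 0 at the same total. Of all genes tested, 47.3% were higher and 7.35% lower at the same total. Plk1, a mitotic kinase, rose to 34.5 ± 2.79 FPKM in mutant libraries, against 21.5 ± 0.87 FPKM in WT libraries (SD, n = 3 each). Ccnb1 (0.47), Cenpf (0.60) and Bub1b (0.37) rose as well on the log2 scale. The share of higher genes, 13 of 40, stands beside the background of 23.2%. It was lower without mutant replicate 2 or without WT replicate 1, with 7 higher in each. Of all 11385 genes tested, 1927 and 2033 were then higher, against 2642 with all libraries. With library weights 13 of the 40 were higher and 10 lower, against 3542 higher and 3546 lower of all 11385 genes tested.

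The precision of single values is limited. The interval the authors deposited around each value had a halfwidth between 31.4% and 52.5% of the value for the 10 genes. Coefficients of variation within groups were between 0.688% and 14.2%, much smaller than that. The deposited intervals of the groups overlapped for all 10 genes, as they did for all but 1.84% of genes tested. No read totals were used here, so the depth behind the values is unknown.

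The sorted cells carried the markers of basal keratinocytes, although many of these differed between the groups. Of 10 tested, 1 was higher and 6 were lower (median log2 fold change -0.38), and 3 were higher and 4 lower at the same total. Their summed level was 23948 to 27368 FPKM in mutant and 26262 to 26573 FPKM in WT libraries. Itga6, which encodes the α6 integrin used for the sort, fell by 0.41 on the log2 scale, a call that ended at the same total (-0.08). Its partner gene Itgb4 fell by 0.75, and Lamb3, which encodes a chain of the laminin these integrins bind, fell by 0.80. The keratin Krt15 rose by 0.49, and the keratin Krt5 did not pass, at 11977 ± 919 FPKM in mutant and 12028 ± 155 FPKM in WT libraries (SD, n = 3 each). Markers of suprabasal keratinocytes differed, with 5 of 9 higher and 1 lower and a summed level of 11765 to 14365 FPKM in mutant and 3865 to 4667 FPKM in WT libraries. In bulk RNA, more cells of a type and more RNA per cell cannot be told apart. Fibroblast markers summed to 379 to 409 FPKM in mutant and 454 to 595 FPKM in WT libraries, with 2 of 8 tested lower and 0 at the same total. Erythroid markers summed to 82.8 to 148 FPKM in mutant and 222 to 288 FPKM in WT libraries, with 3 of 5 tested lower, also at the same total. Hair follicle markers had 4 of 10 higher and 3 lower, and 5 and 1 at the same total, with sums of 1353 to 1583 FPKM in mutant and 1963 to 2378 FPKM in WT libraries. The 8 or 9 endothelial, immune, melanocyte and muscle markers found per list each summed to between 4.88 and 16.4 FPKM in mutant and between 8.51 and 27 FPKM in WT libraries, and the Langerhans cell marker Cd207 was at 0 in every library. Of these low lists, 1 of 1 endothelial, 3 of 5 immune, 2 of 3 melanocyte and 2 of 3 muscle markers tested were lower. At the same total only the 2 muscle calls held. A part of any of these cell types in the values of the 10 genes was not tested.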

How the data were processed

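RNA of sorted α6 integrin-high basal cells was sequenced in 3 mutant and 3 WT libraries. The deposited table gives FPKM with an interval per gene and library, per the file headers. The authors' FPKM came from TopHat and Cufflinks, as the submitters' processing notes name them. Tool versions and library totals: not given in the sources used here. These notes name mm9, but 98.9% of 23315 symbols overlapped the gene of that name in GENCODE M21, so positions are read as GRCm38, with 1 added to each start.

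Every gene whose mean reached 1 FPKM was tested with limma 3.58.1 (empirical Bayes with a mean trend) in R 4.3.3 on log2(FPKM + 1), with genotype as the term, Benjamini-Hochberg adjustment over all 11385 genes calling genes at 0.05. Differences run mutant minus WT. The fit was also run on simulated data with independent errors, few changed genes and no shift between library totals. That setting differs from these data, so it is no check of the calls or of the scaling. Tables used pandas 2.3.3 and numpy 2.4.6 under Python 3.11.15, and figures matplotlib 3.10.9.

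The members and lists were chosen with earlier results of these data known. The text names all members and, per list, up to 4 genes by smallest adjusted p, beside Pik3ca, Cdkn1a, Trp63, Mdm4, Cdkn2a and neighbours of Pik3ca. Cell type markers, Egr1, Fos, Rpl5, Rpl11 and Npm1 were named outside this rule. The basal markers named are therefore a selection, and their counts cover the whole list. A gene that this rule takes is not reported here. Ratios to Trp53 and the decamer search were added after the values were seen. Alternatives covered the pseudocount, low-value filter, scaling, variance prior, library weights, replicate block, left-out libraries and threshold.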

Additional observations from a re-analysis of the deposited data

How the results depend on the processing

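Of the 10 genes, Ccng1, Plk2, Aen and Btg2 kept direction and call in all 16 alternatives, and Zmat3 in the 15 it was tested in, since a mean of at least 5 FPKM leaves it out. Trp53inp1 and Mdm2 lost their calls at a threshold of 0.01, and Trp53, Mdm2 and Pmaip1 lost theirs at the same total FPKM. Mdm2 also lost its call with the replicate block and without WT replicate 1, and Pmaip1 lost its call after quantile normalization. The same total turned Mdm2 (0.049) and Bax (0.278). It also moved the median of the 10 genes to 0.476, against 0.159 as deposited, and the filter at 5 FPKM moved it to -0.047 by leaving Zmat3 out. Without any 1 library, 8 to 9 of the 10 genes passed, with a median of 0.11 to 0.192. Of all genes 5234 passed; 3188 did at the threshold of 0.01, and between 3866 and 5081 without any 1 library.

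Counts of lists moved more. At the same total, 9 genes of arrest and 33 genes lowered by p53 passed, against 5 and 14 as deposited. At 0.01, 4 genes of repair (9 at 0.05), 10 regulators (17 at 0.05) and 8 genes lowered by p53 passed. With library weights, 26 regulators (15 higher, 11 lower) and 23 genes lowered by p53 passed. Of these 23 genes, 13 were higher and 10 lower, against 13 and 1 without weights. Calls over all 11385 genes also grew with the weights, to 3542 higher and 3546 lower, from 2642 and 2592. With the filter at 5 FPKM 4 genes of metabolism passed, against 10. Without any 1 library the counts were 4 to 8 for repair, 10 to 16 for regulators and 8 to 13 for genes lowered by p53. The cause of these moves was not tested, except that filters and left-out libraries leave fewer genes or samples.

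By the labels, replicate numbers are only numbers, and they were not taken to pair the samples. Same-numbered deviations from the group means correlated at 0.127, 0.122 and -0.00735 across genes. Those of replicates 1 and 2 were the highest of all pairs, while mutant replicate 3 correlated best with WT replicate 2 (0.0315). These correlations cannot decide on a pairing, because deviations from a mean of 3 values are tied to each other. With the replicate block, 3798 of all genes and 8 of the 10 genes passed, and 8 regulators.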

Other observations

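Free ribosomal proteins L5 and L11 bind Mdm2 and hold it off p53, and nucleophosmin, encoded by Npm1, also binds Mdm2. These 3 genes of the list of regulators were chosen after their values were seen. Rpl5 was at 694, 729 and 890 FPKM in mutant libraries and at 1470, 1407 and 1158 FPKM in WT libraries, lower in every mutant library (log2 fold change -0.80, limma adjusted p = 0.00244). It was also lower at the same total FPKM (-0.47, adjusted p = 4.72e-04) and after quantile normalization (-0.35, adjusted p = 0.00517). Rpl11 was at 1651, 1688 and 2049 FPKM in mutant libraries and at 3303, 3065 and 2548 FPKM in WT libraries (log2 fold change -0.72, limma adjusted p = 0.00587). Its call held at the same total (-0.39) and was lost after quantile normalization (0.02, adjusted p = 0.701). Npm1 was at 640 ± 44.2 FPKM in mutant and 860 ± 65.3 FPKM in WT libraries (SD, n = 3 each), a difference that did not pass under either of those scalings. Processed pseudogenes of these genes can share reads with them, so their values are uncertain.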
